A study of Equus caballus with 4 samples.

Results

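The 10 genes described here encode the regulatory proteins of the muscle thin filament, namely 3 troponin T isoforms (slow TNNT1, cardiac TNNT2 and fast TNNT3), slow TNNI1 and fast TNNI2 of troponin I, TNNC1 (slow and cardiac) and TNNC2 (fast) of troponin C, and the tropomyosins TPM1, TPM2 and TPM3. Of 43603 gene probes on the array, 18 carried one of these symbols as their gene name, and they covered 7 of the 10 symbols. TNNT1, TNNT2 and TNNI1 were listed under a transcript identifier and were found through the probe description, which added 11 probes and brought the total to 29. The arrays measured RNA of equine satellite cells (ESC), the stem cells of skeletal muscle, during differentiation. The cells came from m. semitendinosus and, per the study's methods, from 1 primary line chosen among those of several young stallions. Treated cells were kept for 24 h with 0.125 µM gamma-oryzanol (GO), which consists of ferulic acid esters of sterols and triterpene alcohols of rice bran, and 3 mM hydrogen peroxide (H2O2) was present during the last 1 h, up to day 3 of differentiation. Control cells of the same day received no GO. In the study's methods the control medium held the same DMSO vehicle, and the controls are described as exposed to H2O2, which the labels leave unsaid.

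On each of 4 two-colour arrays treated RNA was labelled with Cy5 (red) and control RNA with Cy3 (green). The dyes were never swapped, so that dye and treatment cannot be told apart. Each label numbers its control channel as replicate 1, while the design text counts 4 control replicates. The labels call the 4 treated samples biological replicates, but whether each came from a culture started separately is not given, so that the errors measure the spread between these arrays. The log2 ratio is treated over control, and the errors are SD over n = 4 arrays unless stated otherwise. The share of gene spots that stood well above background was 54.9% to 61.3% for control and 56.7% to 61.4% for treated RNA, and 0 gene spots were saturated. Of all probes, 24230 were tested. All 29 troponin and tropomyosin probes were among them, and each was well above background in both channels on all 4 arrays.

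Troponin is the calcium switch of striated muscle. Troponin C binds calcium, troponin I holds back the contact between actin and myosin, and troponin T fastens the complex to tropomyosin, a coiled coil that lies along the actin filament and covers the myosin sites at rest. Fast, slow and cardiac isoforms come from separate genes, and immature skeletal muscle cells often express cardiac and slow forms beside the fast ones. Tropomyosin genes are also used outside striated muscle, where other splice forms of TPM1, TPM2 and TPM3 bind cytoplasmic actin.

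The probes of related isoforms were compared to show how far each could be told from its nearest relative. The sequences are those of the array files, 5′ to 3′. In the 6 sequences that follow, capitals mark the bases that differ from the partner over the stretch where both probes align.
TNNT1 probe A_69_P048119: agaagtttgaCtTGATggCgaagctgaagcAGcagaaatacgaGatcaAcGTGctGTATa
TNNT3 probe A_69_P011606: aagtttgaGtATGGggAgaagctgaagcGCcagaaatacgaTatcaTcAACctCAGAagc
TNNI1 probe A_69_P008756: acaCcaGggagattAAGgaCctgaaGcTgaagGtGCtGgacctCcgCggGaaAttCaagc
TNNI3 probe A_69_P000271: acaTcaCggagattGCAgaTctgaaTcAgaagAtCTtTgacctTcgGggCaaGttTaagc
TPM2 probe A_69_P012833: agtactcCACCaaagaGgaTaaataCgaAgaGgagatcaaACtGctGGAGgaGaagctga
TPM3 probe A_69_P075494: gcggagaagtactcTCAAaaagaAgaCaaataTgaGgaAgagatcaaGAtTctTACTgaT

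The slow and fast troponin T probes lay over the same stretch of their transcripts and differed at 17 of 58 aligned bases (70.7% identity). The slow and cardiac troponin I probes differed at 17 of 60 bases (71.7% identity). The TPM2 and TPM3 probes differed at 17 of 53 bases (67.9% identity). Cross-hybridisation between the isoforms was not tested. The remaining brightest troponin probes are shown in lower case without marks. Each pair was aligned without gaps at the shift of highest identity with at least 30 bases in common, so that every pair gives a value. TNNC1 and TNNC2 gave 57.8% over 45 bases, and TNNI1 and TNNI2 gave 65.8% over 38 bases. TNNT1 and TNNI3, which are not isoforms of each other, gave 66.7% over 30 bases. Such values do not show that 2 probes lie over the same stretch of their transcripts.
TNNT2 probe A_69_P008748: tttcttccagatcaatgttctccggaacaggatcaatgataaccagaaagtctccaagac
TNNI2 probe A_69_P007071: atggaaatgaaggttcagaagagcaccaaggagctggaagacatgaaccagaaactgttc
TNNC1 probe A_69_P055646: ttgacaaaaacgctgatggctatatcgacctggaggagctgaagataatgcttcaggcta
TNNC2 probe A_69_P025561: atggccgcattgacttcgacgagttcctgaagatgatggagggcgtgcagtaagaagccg

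The comparison revealed higher signal of all 3 fast skeletal troponin genes and of the slow genes TNNT1 and TNNI1 in GO-treated ESC when compared to control. TNNC1, the cardiac TNNT2 at its brightest probe and the 3 tropomyosins did not pass the test. At the brightest probe of each gene 5 of 10 genes rose and 0 fell (limma, Benjamini-Hochberg adjusted over all 24230 probes). Of all probes tested 17.1% passed the threshold in either direction and 9.49% passed with higher signal. Of the 18 probes found by gene name 4 rose and 0 fell, and of the 29 probes under either name 11 rose and 0 fell, 5 of these 11 being TNNT1 probes that share most of their bases. Treated and control signals did not overlap for 4 of the 10 genes and 8 of the 29 probes, against 14.2% of all probes tested. At an unadjusted p under 0.05, which 8898 of all 24230 probes reached in either direction, 1 of the 10 genes, TPM3, was lower. In these bulk RNA samples a larger share of muscle cells and more RNA per cell cannot be told apart. The 5 calls needed replicates 1, 3 and 4. When any of these was left out 0 of the 10 genes passed with limma, while 5 (replicate 1 left out), 6 (replicate 3) and 5 (replicate 4) had an unadjusted p under 0.05. In these fits 6484, 7309 and 6694 of all 24230 probes had an unadjusted p under 0.05 as well. With replicate 2 left out 6 genes passed. When arrays were centred on their median and not by loess, a correction that depends on signal, 0 of 10 passed. Of the 10 genes 5 had an unadjusted p under 0.05, beside 1571 of all 24230 probes, while the log2 ratios of the 5 genes lay between 0.33 and 0.54. The methods' t-test, which shares no variance between probes, called 0 of 10 on the same values and 0 of 10 on Agilent's processed signals. In each 5 genes had an unadjusted p under 0.05, beside 6930 and 7501 of all 24230 probes. A fit with no replicate block called 3.

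**Figure D1:**
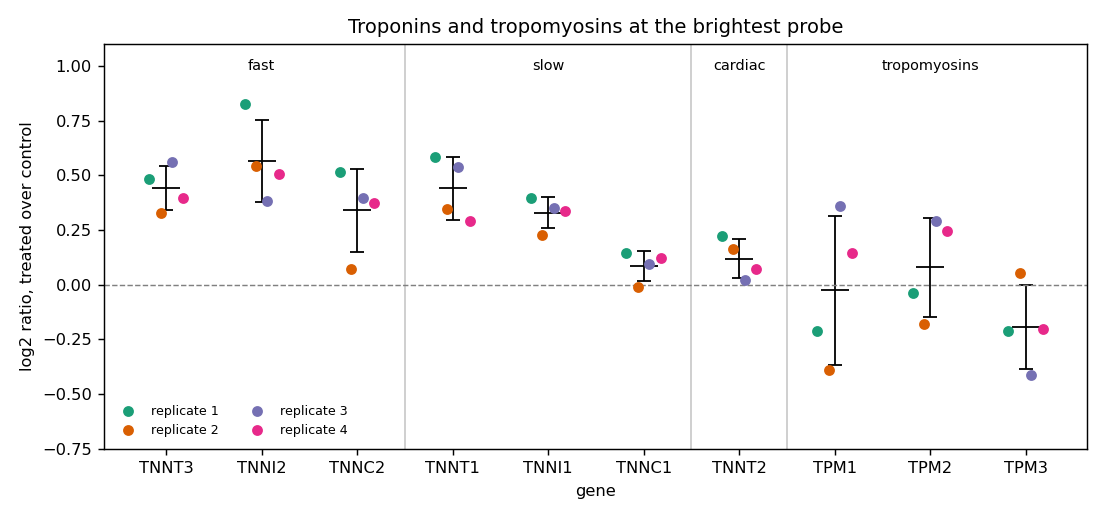
Log2 ratio of treated over control (vertical axis) at the brightest probe of each of the 10 genes, grouped as fast, slow and cardiac troponins and tropomyosins. Points are the 4 arrays, and bars show mean ± SD. All 4 points lie above 0 for the 3 fast genes, for TNNT1 and TNNI1 and for TNNT2, while TPM1 and TPM2 have 2 arrays on each side of 0.

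Among the fast isoforms, TNNT3 (probe at chrUn:277450440-277452351, minus strand, build EquCab1) had control signals of 14711, 13915, 13372 and 11371 and treated signals of 20588, 17477, 19730 and 14961 on replicates 1 to 4 (normalised intensity). Every treated value was above every control value, and both channels were lowest on replicate 4. The log2 ratio was 0.44 ± 0.10, a 1.36-fold difference (limma adjusted p = 0.0125). TNNI2, the inhibitory subunit of the fast complex, was also listed on chrUn (chrUn:277498650-277498815), where the build assigns no chromosome. Its control signals were 818, 931, 1037 and 940, and its treated signals were 1450, 1356, 1351 and 1334. The channels did not overlap, and replicate 1 had the lowest control and the highest treated value. The log2 ratio was 0.56 ± 0.19, which was the highest of the 10 genes and a 1.48-fold difference (limma adjusted p = 0.0150). TNNC2, the calcium-binding subunit of fast muscle (chr22:34842361-34842734, minus strand), had control signals of 8182, 8723, 9584 and 9061 and treated signals of 11704, 9174, 12624 and 11751. Here the channels overlapped, because replicate 2 had nearly equal values, with a log2 ratio of 0.07 against 0.37 to 0.52 on the other arrays. The mean was 0.34 ± 0.19, a 1.27-fold difference (limma adjusted p = 0.0304).

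**Figure D2:**
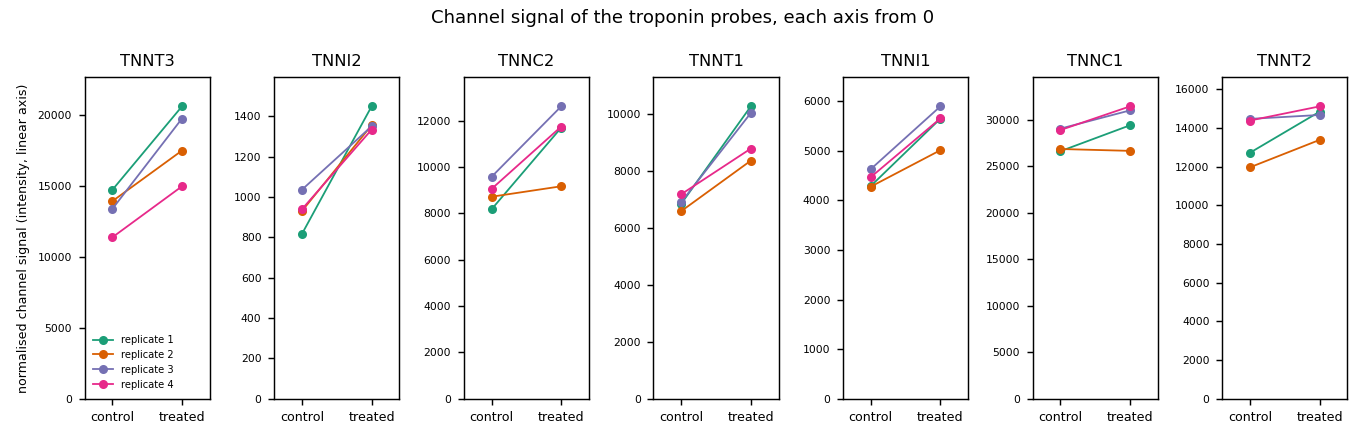
Normalised signal of the control and treated channel (vertical axes, linear intensity from 0, a separate scale for each gene) at the brightest probe of the 7 troponin genes. A line joins both channels of 1 array. The channels do not overlap for TNNT3, TNNI2, TNNT1 and TNNI1, and the TNNC2 line of replicate 2 is nearly flat.

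Among the slow isoforms, TNNT1 (chr10:19130412-19130592, minus strand), which ties the slow complex to tropomyosin, had control signals of 6850, 6592, 6907 and 7184 and treated signals of 10272, 8365, 10038 and 8788. All treated values were above all control values, and the gap was widest on replicates 1 and 3. The log2 ratio was 0.44 ± 0.14, a 1.36-fold difference (limma adjusted p = 0.0158). The 5 TNNT1 probes started within 4 bases of each other and had 56 bases in common. They gave log2 ratios between 0.42 and 0.49, all 5 past the threshold and none with overlapping channels, so that they repeat 1 measurement rather than add to it. TNNI1, the slow inhibitory subunit (chr30:18646529-18647672, minus strand), had control signals of 4288, 4276, 4629 and 4467 and treated signals of 5646, 5010, 5893 and 5650. The treated values were again all above the control values. Its log2 ratio of 0.33 ± 0.07 was a 1.26-fold difference with the second smallest SD among the 10 genes (limma adjusted p = 0.0153). TNNC1, which serves slow skeletal and cardiac muscle (chr16:35287316-35287624, plus strand), had control signals of 26641, 26879, 29071 and 28919 and treated signals of 29429, 26678, 31033 and 31465. The channels overlapped and replicate 2 had the lower value in treated cells. On average the log2 ratio was 0.09 ± 0.07 (limma adjusted p = 0.190), with a 95% interval of -0.02 to 0.19.

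The cardiac isoform TNNT2, which is also found in embryonic skeletal muscle (chr30:18601046-18601344, minus strand), had control signals of 12721, 11967, 14471 and 14385 and treated signals of 14843, 13384, 14673 and 15117. The channels overlapped, with the higher ratios on replicates 1 and 2. On average the ratio of TNNT2 was 0.12 ± 0.09 on the log2 scale (limma adjusted p = 0.122), and its 95% interval before adjustment ran from 0.01 to 0.23. Its 5 probes also shared 56 bases and gave 0.10 to 0.18. One of them, A_69_P008747, passed the threshold (0.18 ± 0.06, adjusted p = 0.0352). It had the highest mean and the smallest SD of the 5, and the call was lost under 11 of 17 alternatives, with adjusted p-values from 0.0295 to 0.790 over these.

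**Figure D3:**
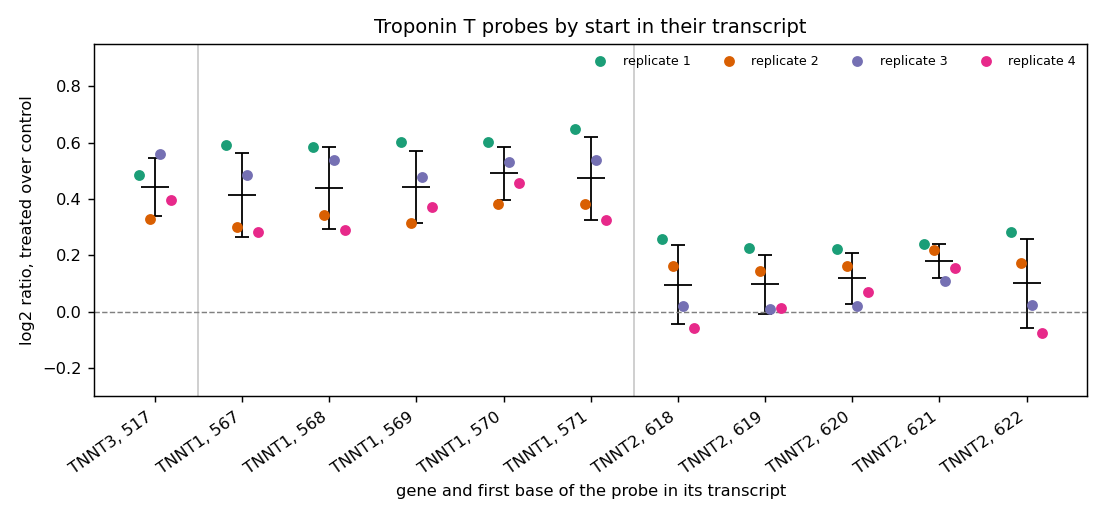
Log2 ratio of treated over control (vertical axis) for the 11 troponin T probes, each labelled by gene and by the first base of the probe in its transcript. Points are the 4 arrays, and bars show mean ± SD. The TNNT3 probe and the 5 TNNT1 probes lie between 0.42 and 0.49 in the mean, and the 5 TNNT2 probes between 0.10 and 0.18.

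Differences between isoforms were taken within each array, as the log2 ratio of one gene minus that of another, so that no level of one probe was set against that of another. Of 8 such pairs none could reach the threshold, since the exact sign-flip permutation test over 4 arrays (two-sided) cannot go below p = 0.125. Fast and slow troponin T moved by nearly the same amount, with a difference of 0.003 ± 0.085 (n = 4, exact p = 0.875) that was positive on 2 arrays. For troponin I the fast gene exceeded the slow one by 0.24 ± 0.17 (n = 4, exact p = 0.125, adjusted over the 8 pairs 0.250), higher on 4 of 4 arrays, but by 0.03 on replicate 3. For troponin C the fast gene exceeded TNNC1 by 0.25 ± 0.12 (n = 4, exact p = 0.125, adjusted 0.250), also on 4 of 4 arrays, with differences of 0.37, 0.08, 0.30 and 0.25. The ratio of cardiac TNNT2 was below that of TNNT1 by 0.32 on average (difference -0.32 ± 0.15, n = 4, exact p = 0.125, adjusted 0.250) and below that of TNNT3 by the same amount (-0.32 ± 0.16, n = 4, exact p = 0.125, adjusted 0.250), on 4 of 4 arrays each.

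Across all 10 genes the order of the mean log2 ratio was TNNI2, TNNT3, TNNT1, TNNC2, TNNI1, TNNT2, TNNC1, TPM2, TPM1 and TPM3. Neighbours in this order, other than TNNI1 and TNNT2, lay closer to each other than the larger of their SDs. Of the neighbours, TNNT3 and TNNT1, TPM2 and TPM1, and TPM1 and TPM3 were compared by the sign-flip test, and the others were not tested. Among all probes tested, the brightest probes of the 5 genes that rose lay at percentile 97.5 (TNNI1) to 99.5 (TNNI2) of the mean log2 ratio. Over the 10 genes the median was 0.31, 0.12, 0.35 and 0.27 on replicates 1 to 4, so that replicate 2 had the smallest shift.

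The genes for troponin I and troponin T lie in pairs on the genome, with the probes of TNNT3 and TNNI2 46.3 kb apart, those of TNNT2 and TNNI1 45.2 kb apart and those of TNNT1 and cardiac TNNI3 13.8 kb apart in build EquCab1. For TNNT3 and TNNI2 this is a distance in chrUn coordinates. In the RefSeq genes of assembly TB-T2T these 2 genes lay on the same chromosome with 2 genes between them. The pairs had ratios of 0.44 and 0.56 (TNNT3 and TNNI2), 0.12 and 0.33 (TNNT2 and TNNI1), and 0.44 and 0.21 (TNNT1 and TNNI3). Both partners passed the threshold in the first and the last pair, although TNNI3 did so under 6 of 18 alternatives, and only TNNI1 did at the brightest probes of the second.

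Of 14 tropomyosin probes 1 rose and 0 fell, a share near the 9.49% of all probes that passed with higher signal, and their median log2 ratio was 0.08. TPM1, the alpha chain of striated and smooth muscle (chr1:126283872-126283931, minus strand), had control signals of 13492, 13237, 11669 and 13385 and treated signals of 11635, 10086, 14956 and 14804. Treated values were lower on replicates 1 and 2 and higher on replicates 3 and 4. The mean log2 ratio was therefore close to 0, at -0.03 ± 0.34 (limma adjusted p = 0.895, 95% interval -0.31 to 0.26), and its sign turned with several of the alternatives. The other TPM1 probes gave 0.07 ± 0.39 and 0.02 ± 0.36 with the same split of the arrays.

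TPM2, the beta chain (chr25:34644234-34644783, plus strand), had control signals of 38083, 35698, 31738 and 28050 and treated signals of 37079, 31553, 38852 and 33256. The treated value was again below the control on replicates 1 and 2 and above it on replicates 3 and 4. The log2 ratio was 0.08 ± 0.23 (limma adjusted p = 0.521, 95% interval -0.12 to 0.28), and all 3 TPM2 probes, which share 58 bases, gave 0.08. The SD of the brightest TPM1 and TPM2 probes was 0.34 and 0.23, against a median SD of 0.0934 over all probes tested. TPM1 minus TPM2 was -0.11 ± 0.12 (n = 4, exact p = 0.250, adjusted 0.400).

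The smooth muscle markers had the same split of the arrays in their median, although ACTA2 was above 0 on replicate 1 as well. Some probes of another marker list had the split as well. Of the fibroblast markers, COL1A2 probe A_69_P004636 had log2 ratios of -0.12, -0.20, 0.39 and 0.21 on replicates 1 to 4. COL3A1 probe A_69_P002532 had -0.06, -0.06, 0.51 and 0.22. Both are dimmer than the brightest probe of their gene. The brightest COL1A2 and COL3A1 probes were below 0 on replicate 2 only. At the brightest probes the median of the fibroblast markers was 0.10, -0.03, 0.28 and 0.19 on replicates 1 to 4. LUM and DCN were below 0 and THY1 was above 0 on all 4 arrays. Of the 5 genes listed (ACTA2, CNN1, TAGLN, SMTN and MYH11) 4 were tested, 0 passed with limma in either direction, and 0 had an unadjusted p under 0.05. MYH11, the smooth muscle myosin, was not tested. In order of replicates 1 to 4 the medians of the log2 ratio were -0.11, -0.20, 0.14 and 0.18, and their summed signal ran from 35524 to 39208 in control and from 30973 to 41978 in treated cells. Smooth muscle and other actin-rich cells express TPM1 and TPM2 as well. The part of these cells in the TPM1 and TPM2 values was not tested.

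TPM4, a cytoplasmic tropomyosin that was no member of the 10 genes, is given for comparison. Its brightest probe had control signals of 61716, 64863, 67312 and 53891 and treated signals of 48832, 45849, 58486 and 56253. Treated signal was lower on replicates 1 to 3 and slightly higher on replicate 4. Its mean log2 ratio was -0.24 ± 0.24 (limma adjusted p = 0.0961), and the other TPM4 probe gave -0.30 ± 0.24 (adjusted p = 0.0576).

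**Figure D4:**
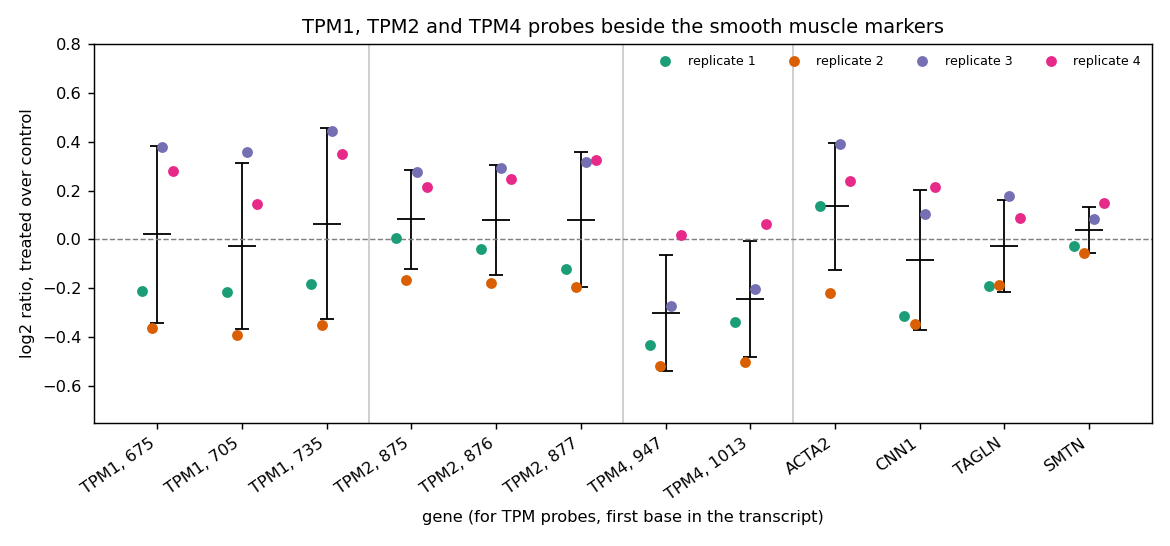
Log2 ratio of treated over control (vertical axis) for the probes of TPM1, TPM2 and TPM4, each labelled by the first base of the probe in its transcript, and for the brightest probe of 4 smooth muscle markers. Points are the 4 arrays, and bars show mean ± SD. For TPM1 replicates 1 and 2 lie below 0 and replicates 3 and 4 above it, as they do for CNN1, TAGLN and SMTN.

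TPM3, the tropomyosin of slow fibres and, in other splice forms, of many cell types, had 8 probes on 4 transcripts. Its brightest probe, on transcript JL639399 (chrUn:82948915-82948974, minus strand), had control signals of 14423, 14365, 16694 and 16529 and treated signals of 12468, 14916, 12524 and 14367. Treated signal was lower on replicates 1, 3 and 4 and slightly higher on replicate 2. The log2 ratio was -0.19 ± 0.19 (limma adjusted p = 0.112), and without replicate 2 it was -0.28 and passed (adjusted p = 0.0316). The 4 probes on transcript ENSECAT00000011543, gave log2 ratios between 0.03 and 0.22, with a mean of 0.13 ± 0.09. One of these, A_69_P075494 (chrUn:82959913-82960655, minus strand), whose sequence is given above, passed with 0.22 ± 0.13 (adjusted p = 0.0445), a call that was lost under 11 of 17 alternatives (adjusted p from 0.0352 to 0.815). Its control signals were 935, 953, 1110 and 886 and its treated signals 1089, 1170, 1138 and 1109. The treated value was the higher one on all 4 arrays, but the channels overlapped, since the control value of replicate 3 exceeded the treated values of replicates 1 and 4.

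The pair of probes on JL639399 lay below those on ENSECAT00000011543 on 4 of 4 arrays, with differences of -0.23, -0.09, -0.39 and -0.41 and a mean of -0.28 ± 0.15. This contrast was chosen after the values were seen and has no test. Each transcript had its own probes, so that transcript and probe cannot be told apart. With the mean over all of its probes TPM3 was at 0.07 in place of -0.19. The last 2 probes, on predicted transcripts XM_001496243 and XM_001496275, were dim, with control signals between 150 and 340, and gave 0.11 ± 0.11 and 0.21 ± 0.19 without passing. TPM1 minus TPM3 was 0.17 ± 0.52 (n = 4, exact p = 0.750) and TPM2 minus TPM3 was 0.27 ± 0.40 (n = 4, exact p = 0.375).

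**Figure D5:**
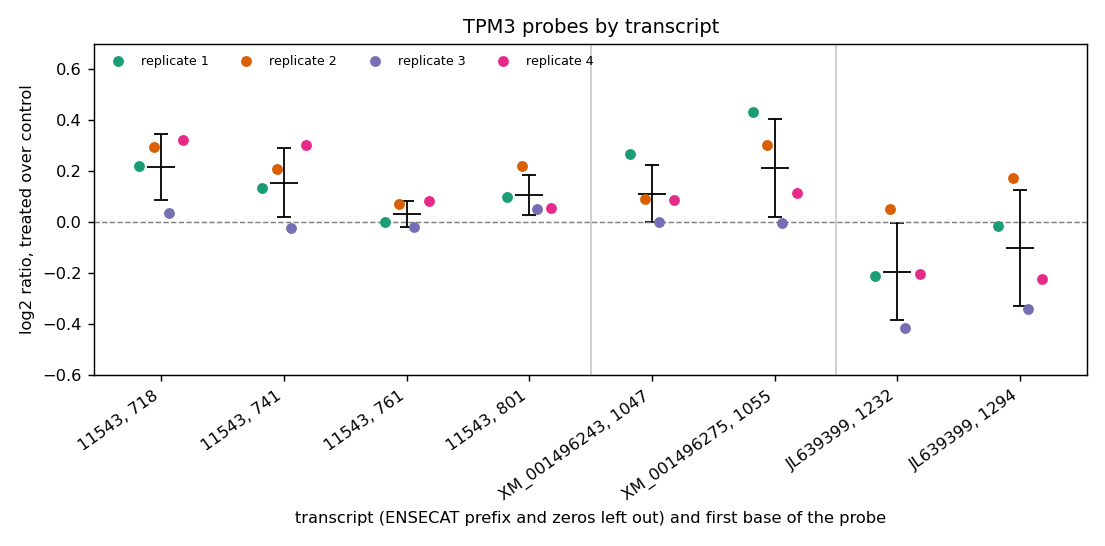
Log2 ratio of treated over control (vertical axis) for the 8 TPM3 probes, ordered by transcript and labelled by the first base of the probe. Points are the 4 arrays, and bars show mean ± SD. The 4 probes of the first transcript have means between 0.03 and 0.22, while both probes of JL639399 have means below 0.

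Other thin filament genes were described from a list of 21 that bind, cap or maintain the filament. Of these 18 were tested (not NEBL, KBTBD13 and MYBPC1). At the brightest probe 6 rose and 0 fell, where 9.49% of all probes passed with higher signal and 17.1% in either direction. The median log2 ratio was 0.14 against 0.003 over all probes. A dimmer TMOD3 probe, A_69_P098417, passed with lower signal (-0.21 ± 0.10, limma adjusted p = 0.0375), and the brightest was at -0.004 ± 0.08. TMOD3 probes A_69_P110017 (-0.21 ± 0.17) and A_69_P110018 (-0.16 ± 0.15) did not pass. These dimmer probes were below 0 on every array. At an unadjusted p under 0.05, 2 of the 18 genes were lower at the brightest probe, namely CAPZA2 and TPM4. The 4 with the smallest adjusted p were ACTC1, CAPZB, KLHL40 and XIRP1. ACTC1, the cardiac alpha-actin that immature skeletal muscle also makes, had 0.44 ± 0.07 (limma adjusted p = 0.0114). CAPZB, a subunit of the protein that caps actin at the Z-disc, had 0.37 ± 0.13 (adjusted p = 0.0169). The alpha subunits of the same capping protein did not pass. At their brightest probes CAPZA2 had -0.11 ± 0.05 (adjusted p = 0.107) and CAPZA1 -0.11 ± 0.09 (adjusted p = 0.151). Their other probes gave 0.05 ± 0.06 and -0.13 ± 0.10. KLHL40, which stabilises nebulin and leiomodin, had 0.21 ± 0.05 (adjusted p = 0.0244), and XIRP1, an actin-binding repeat protein, had 0.32 ± 0.15 (adjusted p = 0.0252). The other genes that rose were TMOD4 (0.36 ± 0.19), which caps the pointed end of the filament, and cardiac troponin I, TNNI3 (0.21 ± 0.13, adjusted p = 0.0460). The call of TNNI3 was lost under 12 of 18 alternatives (adjusted p from 0.0381 to 0.769), and those of the other 5 genes under 6 or 7. The TNNI3 probe was dim, with control signals of 185, 193, 213 and 211 and treated signals of 238, 233, 227 and 230. All its treated values were above the control values, by a wider margin on replicates 1 and 2. Without replicate 1, 3 or 4 none (0) of the 18 genes passed with limma, and 7, 8 and 10 had an unadjusted p under 0.05. Of all 24230 probes 6484, 7309 and 6694 did in the same fits.

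Markers were checked for the identity of the cells. Of all probes tested 9.49% passed with higher signal, 17.1% passed in either direction, and 14.2% had treated and control signals that did not overlap. Of 8 myogenic markers 7 were tested (PAX7, the marker of resting satellite cells, was not). MYOG, CKM, MYH3 and MYH8 rose (4 of 7), with a median log2 ratio of 0.25 over the 7. MYF5 (0.09 ± 0.09), MYOD1 (0.15 ± 0.22) and DES (0.02 ± 0.14) did not pass at their brightest probes. The MYH8 ratio was 0.06 on replicate 2 and 0.99, 1.12 and 0.83 on replicates 1, 3 and 4. The summed signal of the 7 ran from 75667 to 87804 in control and from 88784 to 101056 in treated cells, without overlap. Most of it was the MYH3 probe. Of 8 fibroblast markers 7 were tested, THY1 rose and LUM fell, and the summed signal was 329884 to 408090 in control and 398497 to 472086 in treated cells. Most of this fibroblast sum was the brightest COL1A2 and COL3A1 probes. The other COL1A2 probes had mean log2 ratios from -0.07 to 0.28, against 0.30 ± 0.30 at the brightest. Of 3 immune markers PTPRC rose and CD14 fell, with a summed signal of 14396 to 16092 in control and 18436 to 20530 in treated cells, also without overlap. Most of this sum was 1 PTPRC probe. The 6 PTPRC probes that start at bases 4008 to 4023 of the transcript rose. Their starts lie so close together that they share most of their bases and repeat 1 measurement. The other 9 PTPRC probes, which start at bases 302 to 2712, had signals of 71.9 to 135 near background, and the 1 of them tested did not pass. Without PTPRC the summed immune signal was 3583 to 4117 in control and 3237 to 3697 in treated cells, which overlap. No probe of the 4 endothelial markers was well above background on any array (0 of 15). The marker calls were not followed one by one under the alternatives. Of all 24230 probes only 2, 38 and 0 passed without replicate 1, 3 and 4, and 12 with median centring. The part of the other cell types in the troponin values was not tested.

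The pattern of the 10 genes was compared with that of other named genes by the root mean square difference between 4 log2 ratios, 1 per array, and the median of the 10 genes on the same array. Among 8190 genes the nearest were MRGPRF (0.0319), an orphan receptor, CSRP3 (0.0360), the muscle LIM protein of the Z-disc, AP2M1 (0.0386), a subunit of a clathrin adaptor, WDR26 (0.0392), a WD repeat protein, and NEXN (0.0400), the actin-binding nexilin. CSRP3 had log2 ratios of 0.28, 0.17, 0.35 and 0.30 on replicates 1 to 4 and NEXN had 0.29, 0.07, 0.34 and 0.33. With 4 arrays and so many candidates such closeness is a description of these arrays.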

How the data were processed

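RNA of differentiating equine satellite cells was measured on 4 two-colour Agilent horse arrays, all on 1 slide. Spot intensities were deposited by the authors as extracted with Agilent Feature Extraction 10.10.1.1 per the file headers, with mean and background intensity, processed intensity and a log10 ratio. The deposited series matrix holds the same log10 ratio values.

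Mean intensities were corrected with normexp (offset 50) and normalised by loess within each array. Control spots and outlier spots (7 to 16 per array) were left out, and spots of a probe were averaged. A probe was kept when well above background on all 4 arrays in 1 channel (24230 probes). The mean log2 ratio was tested against 0 with limma 3.58.1 (R 4.3.3) in a two-sided test, with a Benjamini-Hochberg threshold of 0.05 over all probes kept. Since each ratio is taken within 1 array, the array is the block of the design. Printed signals are intensities after loess and Aquantile scaling between arrays. Signal depends on the probe as well as on the transcript, so that isoforms were not compared by level. The summed signals of the marker lists add levels of different probes, so that bright probes weigh most in them. Each gene is represented by its brightest probe. Intervals are 95% limma intervals before adjustment.

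All 10 genes were named with every probe, besides at most 4 list genes with the smallest adjusted p past the threshold, TPM4 and TNNI3, and the 5 genes nearest in pattern. TMOD3, TMOD4, CAPZA1, CAPZA2 and marker genes outside this rule were named after their values were seen. The genes and lists were chosen with earlier results of these data known. Probe positions follow the build in the file headers, EquCab1. All 10 symbols were in the RefSeq gene table of assembly TB-T2T, and the build's exons and UTRs were not used here. The alternatives were other background corrections and normalisations, 2 filters, other variance estimates, the methods' t-test, a fit without the array block, single arrays left out, and the mean over probes. Precision is limited by the number of arrays.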

Additional observations from a re-analysis of the deposited data

How the results depend on the processing

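TNNT3, TNNI2, TNNC2, TNNT1 and TNNI1 passed at their brightest probe with Agilent's processed signals, the series matrix, no background correction, offset 0, the running median, both filters, both variance estimates, the mean over probes and without replicate 2. Over 18 alternatives each their log2 ratios stayed positive, from 0.28 (TNNC2, lowest) to 0.62 (TNNI2, highest).

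The counts moved under other settings. With median centring 12 of all probes passed (12 higher, 0 lower, against 2299 higher and 1838 lower), with the methods' t-test 5, with this t-test run on the processed signals 213, and with no replicate block 594. With median centring and both t-tests 0 of the 18 probes, 0 of the 29 probes, 0 of the 10 genes and 0 of the thin filament genes passed, and of the 10 genes 5 had an unadjusted p under 0.05 in each. Of all 24230 probes 1571, 6930 and 7501 did. With no replicate block, a fit that ignores which channels shared an array, the counts were 1, 7, 3 and 2, and TNNT3 and TNNC2 no longer passed. The array pairing comes from the hybridisation. Leaving out 1 array gave 0 to 3899 of all probes, 0 to 4 of the 18 probes, 0 to 10 of the 29, 0 to 6 of the 10 genes and 0 to 7 of the thin filament genes. All probes fell to 0 without replicate 4, 2 without replicate 1 and 38 without replicate 3, with 6694, 6484 and 7309 of 24230 at an unadjusted p under 0.05. The cause was not tested.

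TNNT3 minus TNNT1 turned negative with no background correction (-0.000103) and with the mean over probes (-0.00991), and ranged from -0.0309 to 0.0373 with 1 array left out. TPM1 minus TPM3 was -0.0481 with the mean over probes and -0.0341 to 0.372 with 1 array left out. TPM1 (probe A_69_P098187) turned positive with Agilent's processed signals, their t-test and the series matrix (0.0231 each), median centring (0.0406), the running median (0.00479) and the mean over probes (0.0203), and ranged from -0.153 to 0.0966 with 1 array left out. TPM3 was 0.0684 with the mean over probes. With 1 array left out the other TPM1 probes ranged from -0.0608 to 0.204 and from -0.0977 to 0.149, TPM2 probe A_69_P012831 from -5.80e-05 to 0.173, TMOD3 at its brightest probe from -0.0371 to 0.0233, LMOD3 from -0.0718 to 0.0167 and CFL2 from -0.0614 to 0.0406. CFL2 was 0.00581 with no background correction and 0.00980 with array weights.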
